A study of Drosophila melanogaster with 2 samples.

Results

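The genes of Mediator, the TBP-associated factors (TAFs), the general transcription factors named TfII and RNA polymerase II were examined for chromatin peaks of Fer3, which belongs to the basic helix-loop-helix (bHLH) family of transcription factors. Members were taken by symbol from the protein-coding genes of the Ensembl BDGP6 annotation (dm6 coordinates): MED or Taf followed by a digit, and all symbols that start with TfII or Polr2. This gave 62 of 13968 protein-coding genes, of which 25 encode Mediator subunits, 15 encode TAFs, 9 encode TfII factors and 13 carry Polr2 symbols.

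Chromatin immunoprecipitation with sequencing was done on whole Drosophila melanogaster embryos of 6 to 24 h. The embryos came from a transgenic line that stably expresses Fer3 with GFP at its C-terminal end, and the labels describe an anti-GFP precipitation, although their antibody field names Fer3. There were 2 biological replicates of 1 group, from separate biosamples of 1 line. No condition was compared. Which promoter drives the fusion is not given in these sources. Since whole embryos were used, the peaks average over all tissues.

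The authors' lists comprised 30000 peaks for each replicate, 30000 peaks for both replicates pooled, and 5636 peaks thresholded by the irreproducible discovery rate, called the reproducible list here. The reproducible list consisted of the 5636 highest pooled peaks by the authors' signal value, so a rank is the same in both. Read counts are not part of the lists, so depth is unknown and a missing peak does not show that a site was unbound. The replicates differed in how many members they reached. Replicate 2 had a peak summit within 1 kb of a start for 50 of the 62 members and replicate 1 for 34, against 57.3% and 52.5% of all protein-coding genes.

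As background, transcription by RNA polymerase II starts when general factors assemble at a core promoter. TFIID, made of the TATA-binding protein TBP and the TAFs, contacts the core promoter. TFIIA and TFIIB join it, TFIIF brings the polymerase, and TFIIE recruits TFIIH, which opens the DNA. Mediator links sequence-specific activators to this assembly through its head, middle and tail modules. These complexes are needed in nearly every cell, although the members also include paralogs such as Taf12L and TfIIA-S-2. bHLH factors bind E-boxes, sites of the form CANNTG.

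The windows at the highest member summits show what these peaks looked like in sequence. Each line gives the plus strand of dm6, 50 bases either side of the summit without annotated untranslated bases, for up to 2 of the highest member peaks per complex. Capitals mark unbroken runs of at least 8 A or T bases, a mark chosen after the values were seen.
MED30, chr3L:654206-654306: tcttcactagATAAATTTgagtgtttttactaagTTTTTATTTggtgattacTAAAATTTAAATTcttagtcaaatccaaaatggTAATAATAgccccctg
MED15, chr2L:472416-472516: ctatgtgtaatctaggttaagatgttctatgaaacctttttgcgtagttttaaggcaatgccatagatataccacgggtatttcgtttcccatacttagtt
TfIIA-L, chr3R:27253238-27253338: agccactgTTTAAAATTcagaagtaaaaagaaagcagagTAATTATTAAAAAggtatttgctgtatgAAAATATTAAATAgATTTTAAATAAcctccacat
TfIIA-S, chr3R:23891061-23891159: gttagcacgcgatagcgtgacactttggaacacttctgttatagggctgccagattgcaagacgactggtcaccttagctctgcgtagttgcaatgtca
Polr2B, chr3R:14125639-14125739: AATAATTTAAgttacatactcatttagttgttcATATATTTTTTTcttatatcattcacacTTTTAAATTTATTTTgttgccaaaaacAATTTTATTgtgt
Polr2J, chr2L:17410492-17410592: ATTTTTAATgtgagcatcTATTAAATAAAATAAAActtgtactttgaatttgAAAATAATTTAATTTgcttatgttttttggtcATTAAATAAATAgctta

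The Polr2B, Polr2J, TfIIA-L and MED30 windows each held 4 such runs, up to 15, 17, 13 and 13 bases long. Their GC contents were 18.8%, 17.8%, 24.8% and 26.7%. The MED15 and TfIIA-S windows held none, at GC contents of 35.6% and 49.5%. The median over all protein-coding genes with a reproducible summit was 30.7%. How often windows at other summits hold such runs was not counted, so the runs are not shown to be particular to members. None of the 6 stretches held a CANNTG site.

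Reproducible peaks lay near 25 of the 62 members, or 40.3% (exact Clopper-Pearson 95% interval 28.1 to 53.6), with the summit no more than 1 kb from an annotated start. The same rule called 26.2% of all protein-coding genes. In the pooled list, 41 members (66.1%, 53.0 to 77.7) had a summit that near, against 53.7% of all protein-coding genes. Of the other members, 10 had a nearby summit in 1 replicate list only and 11 had none in any list. The 25 reproducible summits were all distinct, so no reproducible peak was counted for more than 1 member. These intervals cover counting error over genes only, and no test of the list was made.

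The complexes differed in their counts. Reproducible summits were near 12 of 25 Mediator genes (48.0%, 27.8 to 68.7), 5 of 9 TfII genes (55.6%, 21.2 to 86.3), 6 of 13 Polr2 genes (46.2%, 19.2 to 74.9) and 2 of 15 TAF genes (13.3%, 1.66 to 40.5). The intervals of the 4 groups overlap, and those of the TAF, TfII and Polr2 genes include the share of all protein-coding genes. In the pooled list the counts were 17 of 25, 7 of 9, 8 of 13 and 9 of 15, which lie closer together.

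The counts changed with the rule for a nearby peak, for members and for all genes. At 500 bp, 23 members had a reproducible summit and 22.6% of all protein-coding genes did. At 2 kb it was 29 members and 32.1% of genes, with the 5′-most start alone 23 members and 24.2%, and with peak intervals in place of summits 25 members and 27.2%. In the pooled list, 40 members were called at 500 bp (47.4% of genes), 42 at 2 kb (61.9%) and 36 with a deposited q of at most 0.05 (41.6%). Taking the top 5636 peaks of a single replicate instead, 25 members and 26.4% of genes were called from replicate 2, and 26 members and 25.6% of genes from replicate 1.

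**Figure D1:**
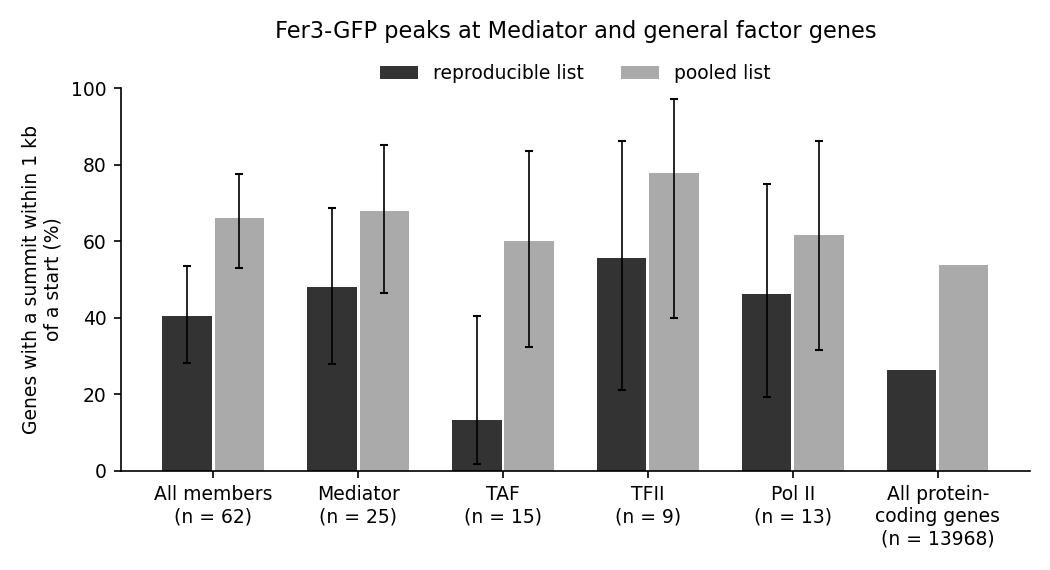
Share of genes (%) with a peak summit within 1 kb of a start, for all 62 members, for each complex and for all 13968 protein-coding genes. Dark bars are the reproducible list, light bars the pooled list, and error bars exact 95% intervals over genes. The TAF genes have the lowest dark bar, at 13.3%.

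The Mediator genes are given by module, beside a share of 26.2% over all protein-coding genes. Reproducible summits were near 4 of the 5 genes of the tail, which contacts activators (MED15, MED16, MED23, MED24 and MED25), the exception being MED24. They were near 3 of 7 head genes (MED6, MED8 and MED17), near 3 of 9 genes of the middle module (MED4, MED7 and MED31), and near MED27 and MED30 among MED27, MED28 and MED30. MED14, the scaffold that joins the modules, had a pooled peak only, as had MED1, MED10, MED19 and MED28. MED11, MED20 and MED22 had no nearby summit in any list. With so few genes per module the counts are a description.

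MED30 had the highest Mediator peak (3L, 654081 to 654415, summit 654256), with a signal value of 783 and rank 392 of 5636. In replicate 1 the overlapping peak had a signal value of 282 and rank 448, and in replicate 2 a signal value of 507 and rank 368. The summit lay 167 bp upstream of the MED30 start and 107 bp from the start of its neighbour Rev1, between genes. Signal values are the authors' and their scale is not given, so ranks are used to compare replicates.

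MED15, a tail subunit, followed at rank 397 with a signal value of 777 (2L, 472359 to 472659, summit 472466). Its replicate peaks ranked 553 in replicate 1 and 316 in replicate 2. The summit lay 547 bp upstream of the MED15 start and 266 bp from that of CG4297, so the peak is nearer to the neighbour.

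MED27 ranked 620 (3R, 5654866 to 5655156, summit 5654996, signal value 620), with replicate ranks of 627 and 605. Its summit lay almost midway, 143 bp from the MED27 start and 135 bp from that of elm. MED17, a head subunit, ranked 854 (3R, 18188747 to 18189119, summit 18188943, signal value 506). Its replicate ranks were 786 and 905, and the summit lay 129 bp upstream of its own start. These 4 peaks thus ranked high in both replicates.

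MED31, a subunit of the middle module, ranked 1056 with a signal value of 440 (3R, 4641632 to 4641889, summit 4641780) and replicate ranks of 815 and 1406. Its summit lay inside an intron of CG9775, 58 bp from a CG9775 start and 183 bp from that of MED31. MED8, a head subunit, ranked 3377 with a signal value of 194 (2R, 20327094 to 20327211, summit 20327174) and replicate ranks of 2018 and 4746. Its summit lay 96 bp from the start of CG8929 and 368 bp from that of MED8. The remaining 6 Mediator peaks, at MED4, MED6, MED7, MED16, MED23 and MED25, had their own gene's start as the nearest and ranked 1781 to 5315. MED23 was the lowest of them, and its summit lay 108 bp downstream of the start in a coding exon of MED23. The MED4 and MED7 summits lay upstream of their genes in exons of the antisense RNA genes asRNA:CR43470 and asRNA:CR45016.

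The TAF genes had few reproducible peaks, but those they had were high. Taf5, a WD40 repeat protein of TFIID, had the highest peak of all members, at rank 291 with a signal value of 904 (2R, 10879688 to 10879994, summit 10879837). The replicate peaks ranked 292 and 295. Its summit lay 164 bp upstream of the Taf5 start and 137 bp from that of the peroxisome gene Pex6.

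Taf2, which contacts the initiator element of core promoters, had a peak at rank 714 with a signal value of 572 (3L, 9888874 to 9889118, summit 9888942). The replicate peaks ranked 586 and 840. The summit lay in a 5′ UTR of CalpB, 162 bp from a CalpB start and 259 bp upstream of the Taf2 start. Both TAF peaks were thus nearer to a neighbour's start than to their own. No TAF window is printed, since Taf5 lies on an arm whose sequence is not shown here and the Taf2 window lies in untranslated bases of CalpB.

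None of the 11 histone-fold TAF genes had a reproducible summit within reach, whereas 7 of them had a pooled one, beside shares of 26.2% and 53.7% over all protein-coding genes. Of the 7, 3 lay just below the end of the reproducible list: Taf11 at rank 5766, Taf8 at rank 6010 and Taf13 at rank 6074. Among the 7000 highest pooled peaks, a list chosen after the values were seen, the TAF count was 5 of 15, with a share of 30.1% over all protein-coding genes. Since the ranks of Taf11, Taf8 and Taf13 were known when that list was chosen, the rise was fixed in advance. It is no test of the low TAF count. With each reproducible summit given to the nearest start alone, the TAF count was 0 of 15, against 19.2% of all protein-coding genes.

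The Taf8 peak (X, 18101142 to 18101505, summit 18101324, signal value 119) overlapped replicate peaks at ranks 6176 and 6524. Its summit lay 646 bp from the Taf8 start and 10 bp from that of Mvb12. The Taf13 peak (2L, 20093829 to 20094192, summit 20094011, signal value 118) overlapped replicate peaks at ranks 5095 and 6553. Its summit lay 162 bp from the Taf13 start and 39 bp from that of nesd, in a 5′ UTR of nesd. Both were thus nearer to the neighbour.

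Taf10 and Taf10b, paralogs that lie head to head on 2L, shared 1 pooled peak (2767633 to 2767996, summit 2767815) at rank 14680, 30 bp from the Taf10b start and 75 bp from that of Taf10. It overlapped a replicate 2 peak at rank 8723 and no replicate 1 peak. Taf12 and Taf9 had pooled peaks at ranks 11531 and 19106. Taf1, the largest TFIID subunit, and Taf6, Taf7 and Taf12L, a paralog of Taf12, had no nearby summit in any list.

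Taf4 differed between the lists. Replicate 2 had a peak 121 bp from a Taf4 start at rank 740 (3L, 16113518 to 16113771, signal value 350, deposited −log10 q 4.11). Replicate 1 and the pooled list held no summit within 1 kb of a Taf4 start, although the nearest pooled summit lay 1002 bp away. Of the 1000 highest replicate 2 peaks, 5 overlapped no pooled peak, and this is 1 of them. The Taf4 peak thus rests on 1 library.

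Both genes of the TFIIA large and small subunits had peaks. TfIIA-L had the highest of the TfII genes, at rank 733 with a signal value of 563 (3R, 27253168 to 27253392, summit 27253288) and replicate ranks of 752 and 737. The summit lay in an intron of TfIIA-L, upstream of its second start, at 142 bp from that start and 106 bp from the start of pll, which encodes the Toll pathway kinase Pelle. TfIIA-S ranked 1659 (3R, 23891055 to 23891187, summit 23891109, signal value 332), with replicate ranks of 1787 and 1821. Its summit lay 49 bp upstream of its start, and no other start lay within 1 kb. A paralog on the X, TfIIA-S-2, had no nearby summit in any list.

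TfIIB, which sets the position of the polymerase at the start, had a peak at rank 1670 with a signal value of 331 (2L, 10430937 to 10431122, summit 10431019). The replicate peaks ranked 1146 and 2448. The summit lay 319 bp upstream of TfIIB and 101 bp from the start of Bug22, a gene for a ciliary protein. TfIIS, an elongation factor that helps a stalled polymerase to resume, had a summit 755 bp from its start at rank 2873 (2L, 15061330 to 15061693, summit 15061512, signal value 221), with replicate ranks of 2323 and 3252. That summit lay 144 bp from a start that solo shares with the germ line gene vas. TfIIS was the farthest of all 25 members from its peak.

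The subunits of TFIIE and TFIIF were split. TfIIEbeta had a reproducible summit 95 bp upstream of its start at rank 3037, while TfIIEalpha had a pooled one at rank 9151. TfIIFalpha had a pooled peak at rank 7336 (3R, 6380131 to 6380494, summit 6380313, signal value 99.7), which overlapped a replicate 2 peak at rank 12773 and no replicate 1 peak. Its summit lay 154 bp from the TfIIFalpha start and 15 bp from that of CG1024. TfIIFbeta had none in any list.

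Of the polymerase genes, both large subunits that form the catalytic cleft had peaks, of unequal height. Polr2B, the second largest subunit, ranked 326 with a signal value of 855 (3R, 14125522 to 14125851, summit 14125689), and its replicate peaks ranked 243 and 428. Polr2A, the largest subunit, ranked 4659 with a signal value of 148 (X, 11570273 to 11570636, summit 11570455). It overlapped a replicate 2 peak at rank 5565 and no replicate 1 peak. The summits lay 102 and 129 bp upstream of the genes.

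Polr2J, Polr2H and Polr2F ranked 1055, 1066 and 1269. Polr2H and Polr2F are subunits that all nuclear RNA polymerases share. The Polr2J summit (2L, 17410382 to 17410662, summit 17410542, signal value 440) lay 136 bp from its start and 99 bp from that of CG15141, with replicate ranks of 719 and 1475. The Polr2H summit (3L, 21728679 to 21728890, summit 21728784, signal value 436) lay in a 5′ UTR of CG11247, 22 bp from that gene's start and 148 bp from the Polr2H start, with replicate ranks of 763 and 1537. For Polr2F (3R, 5371631 to 5371856, summit 5371752, signal value 395) the start 43 bp away was the only one within 1 kb, and the replicate ranks were 1135 and 1378. Each of these peaks was high in both replicates.

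Polr2I ranked 5064, with its summit 155 bp upstream and no overlapping replicate 1 peak. Its neighbour within 1 kb is su(Hw), which encodes an insulator protein. Polr2C and Polr2E had pooled peaks at ranks 6143 and 9950. Polr2D, Polr2G and Polr2K had a summit in replicate 2 only, and Polr2L and Polr2M had none in any list.

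**Figure D2:**
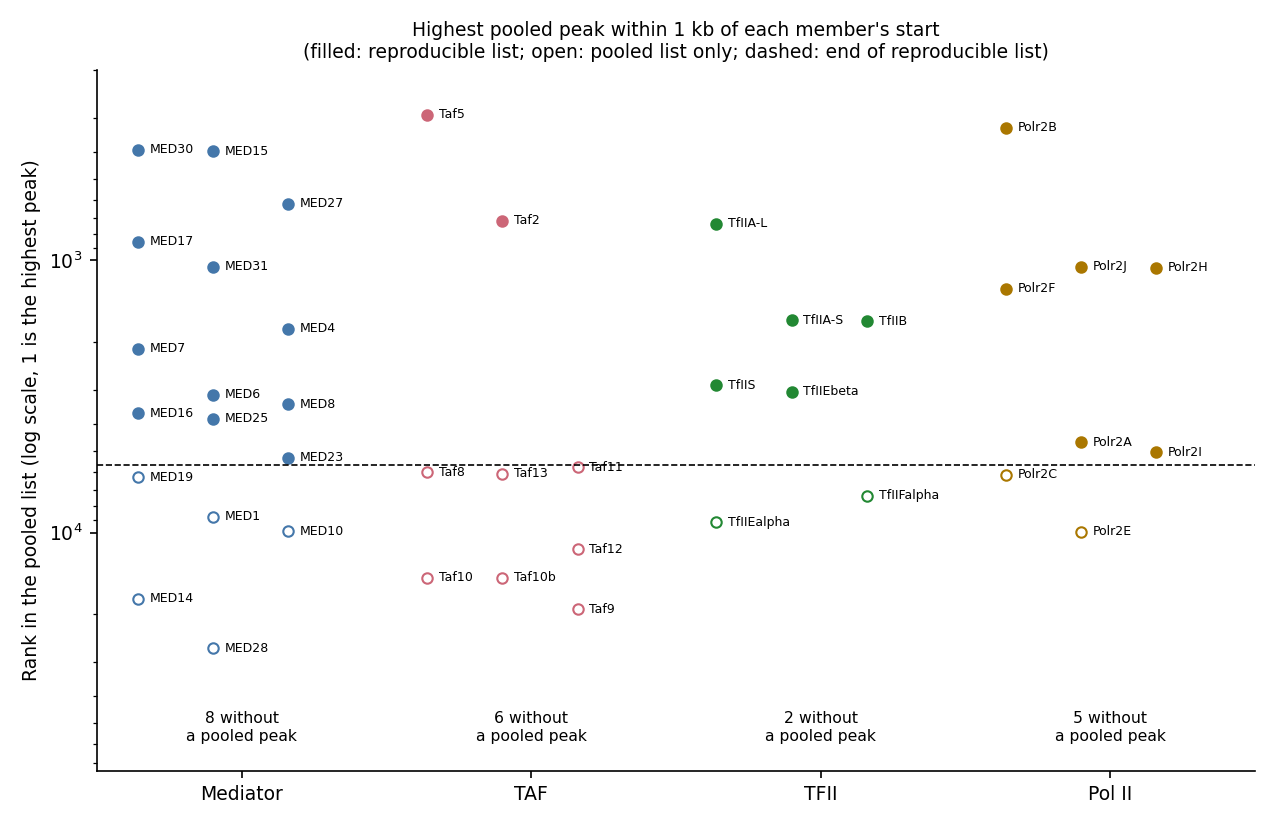
Rank in the pooled list (log scale, 1 at the top) of the highest peak within 1 kb of each member's start, by complex. Filled points are in the reproducible list, open points in the pooled list only, the dashed line marks rank 5636, and the numbers at the bottom count members with no pooled peak. Taf11, Taf8, Taf13, Polr2C and MED19 lie just below the line.

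Within the reproducible list, the members' peaks had a median rank of 1659, against 2205 for the highest peak of each of the 3664 protein-coding genes called. Ranks 1 to 1409 of the list held 12 of the 25 members (48.0%) and 34.7% of those genes. Of these 12 members, only MED17, Polr2B and Polr2F had their own start as the nearest to the summit. The high ranks thus include many summits that lie nearer to another gene. By complex the ranks spanned 392 to 5315 in Mediator, 291 and 714 in the TAFs, 733 to 3037 in the TfII genes and 326 to 5064 in the polymerase genes.

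Replicate 2 had peaks at members that replicate 1 did not. Of the 25 reproducible peaks, 25 overlapped a replicate 2 peak and 22 a replicate 1 peak, the exceptions in replicate 1 being MED16, Polr2A and Polr2I. Over all genes called, 99.1% and 94.0% had such an overlap. Counting any replicate summit within 1 kb, 17 members (27.4%) had one in replicate 2 alone and 1 member, MED21, in replicate 1 alone, against 14.5% and 9.79% of all protein-coding genes. Of the 10 members with a summit in a single replicate list and no pooled one, 9 were replicate 2 cases: MED9, MED18, MED24, MED26, Taf3, Taf4, Polr2D, Polr2G and Polr2K. The part that depth or enrichment of the libraries has in this was not tested.

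**Figure D3:**
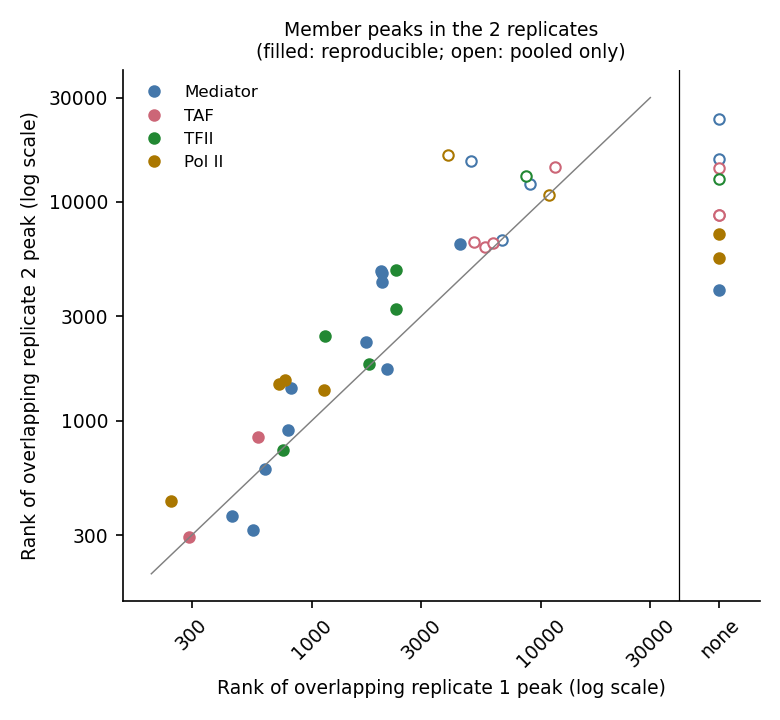
Ranks of the replicate 1 peak (x axis, log scale) and the replicate 2 peak (y axis, log scale) that overlap each member's highest pooled peak, coloured by complex, with the line of equal rank. Points at "none" have no overlapping replicate 1 peak, among them 3 reproducible peaks, at MED16, Polr2A and Polr2I.

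Peaks lay upstream of the members, and often between a pair of genes that point away from each other. The summit was upstream of the nearest own start for 23 of 25 members (92.0%), against 82.6% of all called genes, and the median distance was 143 bp (37 to 755), against 175 bp. MED6 and MED23 were the 2 with summits downstream. Of the 25 summits, 16 lay between genes, 3 in a 5′ UTR, 3 in exons of noncoding genes, 2 in introns and 1 in a coding exon.

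An other-strand start within 1 kb was common among members. It was present for 44 of 62 members (71.0%), against 36.8% of all protein-coding genes. Genes with such a neighbour had a reproducible summit in 21 of 44 cases among members (47.7%), against 42.7% over all protein-coding genes. Genes without one had it in 4 of 18 cases among members (22.2%), against 16.6%. Over both classes together the shares were 40.3% of members and 26.2% of all genes. The members' share mixes complexes that differed. With such a neighbour the counts were 11 of 19 Mediator (57.9%), 3 of 5 TfII and 5 of 8 Polr2 genes (62.5%). These shares lay above the 42.7% of all genes, and the TAF share, 2 of 12 (16.7%), lay below it. Without one the counts were 1 of 6, 2 of 4, 1 of 5 and 0 of 3, in the same order. How far the neighbours account for the members' count was not tested, and this split does not decide it. TAF genes had such neighbours in 12 of 15 cases (80.0%) and Mediator genes in 19 of 25 (76.0%). For TfII genes it was 5 of 9 (55.6%) and for Polr2 genes 8 of 13 (61.5%).

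For 12 of the 25 members the nearest start to the summit belonged to another gene (48.0%), whereas over all called genes the own start was nearest in 70.3%. These 12 were MED8, MED15, MED27, MED30, MED31, Taf2, Taf5, TfIIA-L, TfIIB, TfIIS, Polr2H and Polr2J. With each summit given to the gene with the nearest start alone, 13 of 62 members were called (21.0%, 11.7 to 33.2), against 19.2% of all protein-coding genes, and no TAF gene was among them. The pooled count under that rule was 28 of 62 (45.2%, 32.5 to 58.3), against 44.7%. Both shares are near those of all genes. By complex, the reproducible share under that rule was 28.0% for Mediator, 22.2% for TfII and 30.8% for Polr2 genes. The rule goes by distance alone, so it does not show which gene a peak belongs to. The part of shared peaks in the members' count was not tested. For the 21 members with an other-strand start within 1 kb, both genes pointed away from each other in every case, and the summit lay between both starts in 16. The starts were 19 to 899 bp apart, with a median of 278 bp.

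**Figure D4:**
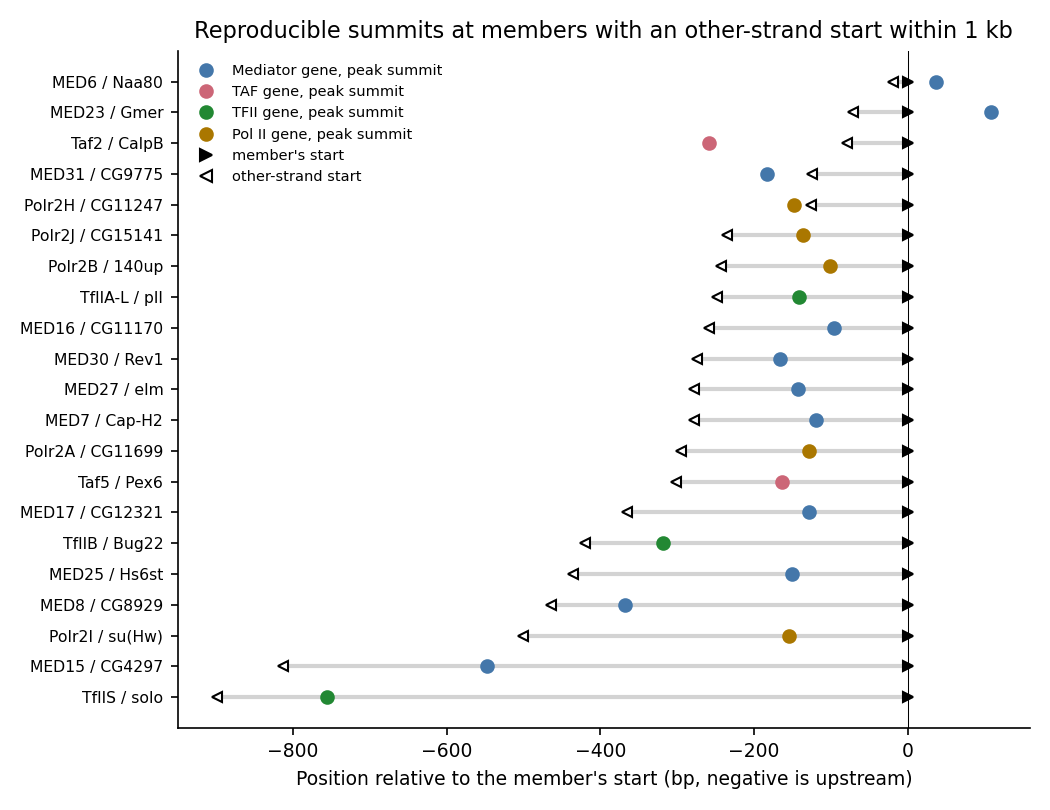
Position in bp, relative to the member's start, of the reproducible summit (coloured point) and of the nearest start on the other strand (open triangle), for the 21 members that have such a start within 1 kb. Negative positions are upstream. In 16 of the 21 rows the summit lies between both starts, and in the rows of MED6, MED23, Taf2, MED31 and Polr2H it lies outside.

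The other 16 members with a pooled peak had summits at a median distance of 63.0 bp from their starts, against 143 bp for the reproducible summits of members. Over all protein-coding genes the medians ran the other way, at 207 bp for pooled summits without a reproducible one and 175 bp for reproducible summits. Of the 16 members, 12 (75.0%) had summits within 100 bp, against 5 of 25 (20.0%) for the reproducible summits of members. Over all protein-coding genes the shares were 33.3% for pooled summits without a reproducible one and 25.0% for reproducible summits. MED10 (7 bp), MED28 (9 bp), Taf11 (12 bp) and Taf12 (4 bp) had summits almost at their starts. The summits of these 16 members, of which Taf10 and Taf10b share 1, lay in a 5′ UTR for 8 members and between genes for 8. Their GC content in 101 bp averaged 37.8% ± 7.11 (SD, n = 16 summit windows, Taf10 and Taf10b sharing 1), against 28.5% ± 10.9 (n = 25) at the members' reproducible summits. Over all genes these averages were 41.1% and 32.6%.

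E-boxes were scarce at the member summits. A CANNTG site, on either strand, was in 3 of 25 windows of 101 bp (12%), against 33.4% of the 3084 reproducible summits that lie that near any start and 33.9% of all 5636. With 100 bases either side the shares were 36.0%, 58.5% and 58.9%, and with 150 bases 68.0%, 74.9% and 75.9%. The member windows had a median GC content of 26.7%, and the part of base composition in this count was not tested beyond a split at 30%. In windows with a GC content under 30%, 1 of 14 member windows held the site (7.14%), against 24.9% of such windows at summits near any start. At 30% or more it was 2 of 11 (18.2%), against 39.8%.

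The windows with an E-box were those at MED27, TfIIS and Polr2F, and the windows of MED27 and TfIIS are shown with CANNTG in capitals, on the plus strand of dm6. The Polr2F window is interrupted by annotated untranslated bases and is not shown. In TfIIS the site, CATATG, lay 1 bp from the summit, and in MED27 it lay 13 bp away.
MED27, chr3R:5654946-5655046: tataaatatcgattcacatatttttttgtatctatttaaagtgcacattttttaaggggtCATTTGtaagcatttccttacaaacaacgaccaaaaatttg
TfIIS, chr2L:15061462-15061562: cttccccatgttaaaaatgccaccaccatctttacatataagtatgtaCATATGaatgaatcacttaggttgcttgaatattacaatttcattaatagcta

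**Figure D5:**
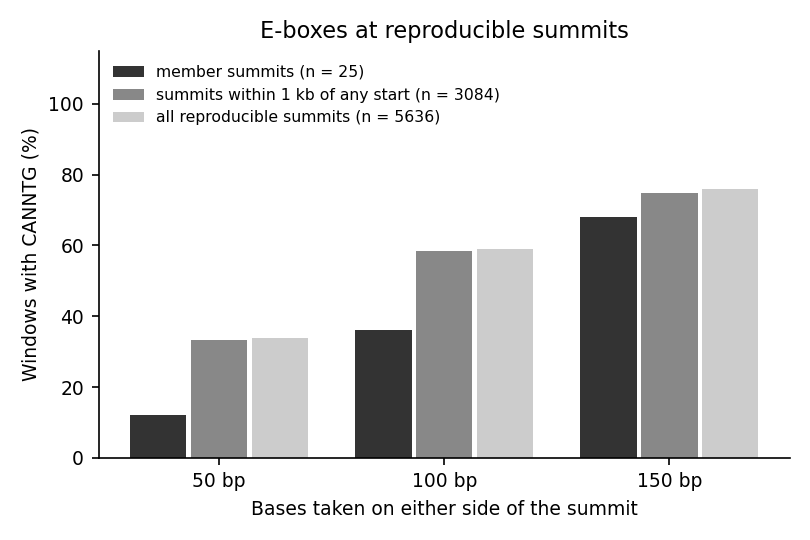
Share of windows (%) that hold CANNTG, by the number of bases taken on either side of the summit, for the 25 member summits, for the 3084 reproducible summits within 1 kb of any start and for all 5636. Member windows have the lowest bar at each width, at 12%, 36.0% and 68.0%.

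Other promoter motifs were searched in the same way, on both strands. TATCGATA, the site of the factor DREF, and GGTCACACT, the core promoter element called Motif 1, were in 0 of 25 member windows, against 2.59% and 0.875% of summits near any start. At those shares less than 1 window would hold either, so 0 of 25 is not informative. With 150 bases either side TATCGATA was in 4 of 25 (16%, against 8.20%) and GGTCACACT in 2 (8%, against 4.38%). TATAAA was in 8 of 25 (32.0%, against 23.9%) and GAGAG in 1 (4%, against 9.44%). In the promoters themselves, 250 bases before to 50 after each start, Motif 1 was found for 16 of 62 members (25.8%) and 6.77% of all protein-coding genes. Of these 16 members, 5 were among the 25 with a reproducible summit and 11 among the other 37. TATCGATA was found for 12 members (19.4%), against 10.2% of all genes, 4 among the 25 and 8 among the other 37. CANNTG was found in the promoters of 46 members (74.2%), against 81.9% of all genes, 19 among the 25 and 27 among the other 37.

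Genes of the same machinery under other symbols were counted with the same rule and are set against the share of 26.2% for all protein-coding genes. Of the 4 Mediator kinase module genes, skd (rank 1515, nearest to the start of Pdss2) and Cdk8 (rank 3164) had a reproducible summit, and kto and CycC did not. Of the TBP family, Trf2 had one at rank 4913, whereas Tbp had a pooled peak at rank 10594 and Trf, the other-strand neighbour of MED20, had none. Of 10 genes of TFIIH and its kinase, 5 had one, led by Ssl1 (rank 26, nearest to the start of Chro) and mrn (rank 1238). Of 5 symbols written for TAF paralogs of the testis, 1 had no match. The other 4, can, mia, nht and sa, had no reproducible summit, and sa had a pooled peak at rank 26825. Of 26 SAGA and ATAC subunit genes, 8 had one (30.8%), led by the acetyltransferase gene Gcn5 (rank 417) and Ada2b (rank 866). Of 24 genes of pausing and elongation factors, 18 had one (75.0%), led by Nelf-E (rank 268, nearest to the start of RpL14) and bin3 (rank 491). Several of these 18 genes besides Nelf-E also had a summit nearer to another gene's start, so the share is not one of peaks nearest to these genes. RNA polymerase I and III subunit genes had one in 5 of 17 cases (29.4%), led by Polr3E (rank 527, nearest to the start of CG10584).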

How the data were processed

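The deposited narrowPeak lists on dm6 were used without change. Per the deposited file descriptions, a replicate list derives from the alignment of that replicate and a control alignment common to both, the pooled list from both alignments together, and the reproducible list from the other 3 lists. No source used here names the aligner or peak caller. The lists give the authors' signal value, with no stated scale, and a deposited −log10 q per peak. Ranks follow the signal value within a list.

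A start is the 5′ end of an annotated protein-coding transcript in the Ensembl BDGP6 annotation. Each member was described by its highest summit within 1 kb of a start, and replicate peaks were matched by an overlap of at least 1 bp. Sequences were read from the Release 6 genome, in which 99.8% of annotated start codons read ATG and whose arms hold all 95636 peaks. Coordinates are 1-based. Every member was named. Full values were given for up to 4 members with the highest reproducible peaks in each complex and for those whose summit was nearer to another gene's start or shared with another member. Up to 2 genes with the highest peaks were named for each further list, and others chosen after their values were seen were Cdk8, kto and CycC, the TBP family and the testis paralogs. Written symbols with no match in the annotation were left out. Members, modules and lists were chosen with earlier results of these data known. No p-values were computed, since 1 group of 2 replicates allows no comparison of conditions. The calls were tested on simulated summits. The work used scipy 1.17.1, numpy 2.4.6, matplotlib 3.10.9 and pandas 2.3.3 under Python 3.11.15.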

Additional observations from a re-analysis of the deposited data

How the results depend on the processing

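The count of 25 of 62 members was within 1.5 times of itself at 500 bp, at 2 kb, with the 5′-most start alone, with peak intervals in place of summits and with the 7000 highest pooled peaks (23 to 30). Those settings called 22.6% to 32.1% of all genes. The count was 25 and 26 with the 5636 highest peaks of 1 replicate, without replicate 1 (26.4% of all genes) or without replicate 2 (25.6%). It moved to 16 among the 2818 highest reproducible peaks, where 15.7% of all genes were called. With each summit given to the nearest start alone it moved to 13, where 19.2% of all genes were called. Under the same 2 settings Mediator had 7 and 7, TFII 3 and 2, and TAF 2 and 0. The TAF count of 2 moved to 5 at 2 kb (32.1% of all genes). It also moved to 5 with the 7000 highest pooled peaks (30.1%), an alternative chosen after seeing the data. Without 1 replicate the ranges were 12 to 13 for Mediator, 3 to 3 for TAF, 5 to 5 for TFII and 5 to 5 for Pol II. The pooled count of 41 ranged from 28 (44.7% of all genes) to 42 (61.9%) under the other settings. It was 50 without replicate 1 (57.3%) and 34 without replicate 2 (52.5%). The median distance of 143 bp ranged from 129 to 144 bp. The median percentile of member peaks was 70.6 (n = 25), against 60.9 for all called genes. It was 69.3 without replicate 1 (n = 25) and 82.7 without replicate 2 (n = 22). The last value leaves out MED16, Polr2A and Polr2I, which had no overlapping replicate 1 peak, so it is not over the same members. These percentiles include member summits that lie nearer to another gene's start. No paired analysis was possible because there is 1 group. Depth is unknown, so the smallest peak that each library could show cannot be given.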
